A study of Mus musculus with 6 samples.

Results

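Osteoblasts, the cells that build and mineralize bone, are recognized by a small set of transcripts, and 9 of these were followed in RNA sequencing of articular cartilage from knockout (KO) and wildtype mice: *Runx2*, *Sp7*, *Alpl*, *Bglap*, *Bglap2*, *Ibsp*, *Spp1*, *Ifitm5* and *Sparc*. Members were chosen by name, as the rows of the deposited table whose gene name equals a member, and each name matched a single row, so that 9 of 34709 genes in the table were members. Positions below are those of the table. All 9 averaged at least 0.5 FPKM (fragments per kilobase of transcript, relative to the depth of the library) over the libraries and entered the test with 15373 genes in all. There were 6 libraries, 3 from KO and 3 from wildtype mice by their labels, with replicates numbered 1 to 3 in each group. Cartilage was taken from mice 18 months old, which per the study's methods were male littermates; KO mice were on a C57BL/6J background and carried the deletion in the whole body, with no tissue-specific driver stated. The labels do not say whether a library came from a single mouse, and the p-values below measure the spread between these samples, which may be technical.

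Osteoblast identity is set by the transcription factor RUNX2 and, downstream of it, by SP7 (osterix), and neither bone collagen secretion nor mineral deposition proceeds normally without them. Committed cells then make alkaline phosphatase, which frees phosphate for mineral, and secrete a matrix of type I collagen together with osteocalcin, bone sialoprotein, osteopontin and osteonectin. Healthy articular cartilage is made by chondrocytes and rests on a plate of calcified cartilage and bone, so these transcripts are textbook markers of the tissue beneath it more than of cartilage itself. *Spp1* and *Sparc* are made by many other cells too, *Spp1* by osteoclasts and macrophages among them, whereas *Bglap*, *Bglap2*, *Ibsp* and *Ifitm5* are more restricted to bone. The libraries also held listed markers of hypertrophic chondrocytes, *Col10a1* at 32.2 to 64.9 FPKM and *Mmp13* at 78.8 to 147 FPKM. The part of such chondrocytes in the members' values was not tested.

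The 2 osteocalcin genes are shown first, because how far they can be told apart decides how their values are read. *Bglap* and *Bglap2* lie 4801 bases apart on the minus strand of chromosome 3 (GRCm38, 88383501 to 88384464 and 88377736 to 88378699), and their coding sequences of 285 bases in the GENCODE vM21 annotation differ at 4 positions, an identity of 98.6%. Counted from 1 at the first base of the start codon, with the *Bglap* base first, the differences are A10C, T14C, A31G and T273C. They are in capitals in the coding sequences, each given 5′ to 3′ without the stop codon.

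Bglap: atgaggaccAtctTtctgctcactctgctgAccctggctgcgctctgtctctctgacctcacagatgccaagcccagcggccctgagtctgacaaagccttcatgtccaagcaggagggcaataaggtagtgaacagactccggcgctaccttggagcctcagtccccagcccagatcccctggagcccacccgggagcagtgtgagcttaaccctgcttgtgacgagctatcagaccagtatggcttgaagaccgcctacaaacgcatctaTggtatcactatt

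Bglap2: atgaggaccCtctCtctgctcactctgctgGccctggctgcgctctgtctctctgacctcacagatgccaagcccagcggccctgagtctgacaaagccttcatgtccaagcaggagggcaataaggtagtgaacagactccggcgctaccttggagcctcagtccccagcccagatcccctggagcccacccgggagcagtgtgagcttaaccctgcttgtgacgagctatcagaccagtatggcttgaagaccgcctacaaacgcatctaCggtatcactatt

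Of the 291 windows of 150 bases, the length of a read, in the *Bglap* transcript, 92 (31.6%) also occur in *Bglap2*. Taken singly, reads from the middle of the coding sequence thus fit both genes. Reads came in pairs, and whether the second read of a pair tells the genes apart was not examined. The split between the pair is therefore uncertain, and their sum is given beside them. The third gene of the cluster, *Bglap3*, differs from *Bglap* at 13 coding positions and shares none of its windows of that length. It is expressed mainly outside bone and stood at 0 to 0.308 FPKM in these libraries.

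The stretches just upstream of *Bglap* and *Spp1* are shown because both hold the core letters bound by RUNX factors, ACCACA or its reverse complement TGTGGT, which are in capitals. Each is the 250 bases before the RefSeq start site (GRCm38.p6), read 5′ to 3′ along the gene, for *Bglap* chr3:88384467-88384716 on the minus strand and for *Spp1* chr5:104434861-104435110 on the plus strand.

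Bglap promoter: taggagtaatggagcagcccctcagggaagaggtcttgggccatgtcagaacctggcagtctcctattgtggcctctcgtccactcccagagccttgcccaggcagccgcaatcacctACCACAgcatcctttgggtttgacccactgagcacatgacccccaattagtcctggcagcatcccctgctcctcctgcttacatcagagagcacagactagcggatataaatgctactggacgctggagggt

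Spp1 promoter: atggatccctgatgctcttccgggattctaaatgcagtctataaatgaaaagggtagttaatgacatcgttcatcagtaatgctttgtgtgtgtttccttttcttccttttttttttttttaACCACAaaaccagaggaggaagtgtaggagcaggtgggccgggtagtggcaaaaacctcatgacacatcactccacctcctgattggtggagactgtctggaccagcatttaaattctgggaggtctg

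The RUNX letters began 132 bases before the start site in *Bglap* and 128 bases before it in *Spp1*, on the gene's own strand in both. Of the 7 members with a window in the promoter table, 3 held them (*Runx2* itself was the third), against 14% of 32841 windows of the same length. The RefSeq start site used for *Sparc*, whose window lacked them, lies 3103 bases inside the gene as deposited, so that window is not at the deposited start. The *Bglap* window also held the letters TATAAA, those of the box that binds the general transcription machinery, 27 bases before the start site. In the *Spp1* window they began 211 bases before it. These letters were found on the gene strand in 2 of the 7 members' windows and in 7.59% of all windows. These matches are descriptions of letters, and binding was not measured here.

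A few facts of the whole series bear on every value. Total counts were between 52268311 and 63331135 per library. KO replicates 2 and 3 were near-copies: their squared count differences were 5.59 to 6.14 times what sampling alone gives, against 13.3 to 516 times for the other 14 pairs of libraries, and they were averaged and counted as 1 sample (KO n = 2, wildtype n = 3). On these 5 samples edgeR's quasi-likelihood test called 0% of the 15373 genes at an adjusted p under 0.05, with 2106 genes (13.7%) at an unadjusted p under 0.05. On the same samples DESeq2 called 880 genes and limma 0, and edgeR on the 6 libraries as labelled called 570 (3.71%). That last fit counts the near-copies as separate samples, which can make its p-values too small. Its calls, here and below, are given only beside those on 5 samples. Chondrocyte genes were present at unlike levels. *Col2a1*, the main collagen of hyaline cartilage, stood at 12.4 to 21.3 FPKM and *Acan* (aggrecan) at 13.2 to 22.8 FPKM, both under *Ibsp* in every library. *Prg4* (lubricin, of the cartilage surface) reached 402 to 1034 FPKM, and *Chad*, also on the chondrocyte list, 70.3 to 230 FPKM. That list of 14 genes summed to between 668 and 1496 FPKM. Globin and other erythroid transcripts summed to between 24933 and 108529 FPKM, and neutrophil transcripts to between 26880 and 62171 FPKM, so markers of marrow stood beside those of cartilage and bone.

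Of the 9 genes, 8 had lower mean levels in KO than in wildtype cartilage and *Runx2* was level, but none passed the test. Over all genes tested, 52.5% had a log2 difference on the lower side in KO. Most of the 9 were high in the same wildtype libraries, so their directions are not separate results. The osteocalcin genes *Bglap* and *Bglap2* stood furthest down, at log2 differences (KO minus wildtype) of -0.84 and -0.79, the other secreted matrix genes *Spp1*, *Sparc* and *Ibsp* between -0.57 and -0.52, and *Runx2* at -0.0006. The median over the members was -0.52 on the log2 scale, beside -0.02 over all genes tested. None of the 9 was called by any of these tools or in either fit. With edgeR on 5 samples none had an unadjusted p under 0.05, where 13.7% of all genes did. DESeq2 on these samples gave 1 member, *Ibsp*, an unadjusted p of 0.0353, beside 2473 of 15373 genes under 0.05. EdgeR on the 6 libraries as labelled gave *Ibsp* an unadjusted p of 0.0233, beside 3408 genes under 0.05. With the replicate number as a block, edgeR gave *Ibsp* 0.0324 and *Spp1* 0.0192, beside 2809 genes. Both of these edgeR fits count the near-copies as separate samples. For all 9, the distance between the highest and the lowest wildtype library was larger than the difference between the groups. In bulk tissue, fewer osteoblasts and less RNA per osteoblast cannot be told apart.

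**Figure D1:**
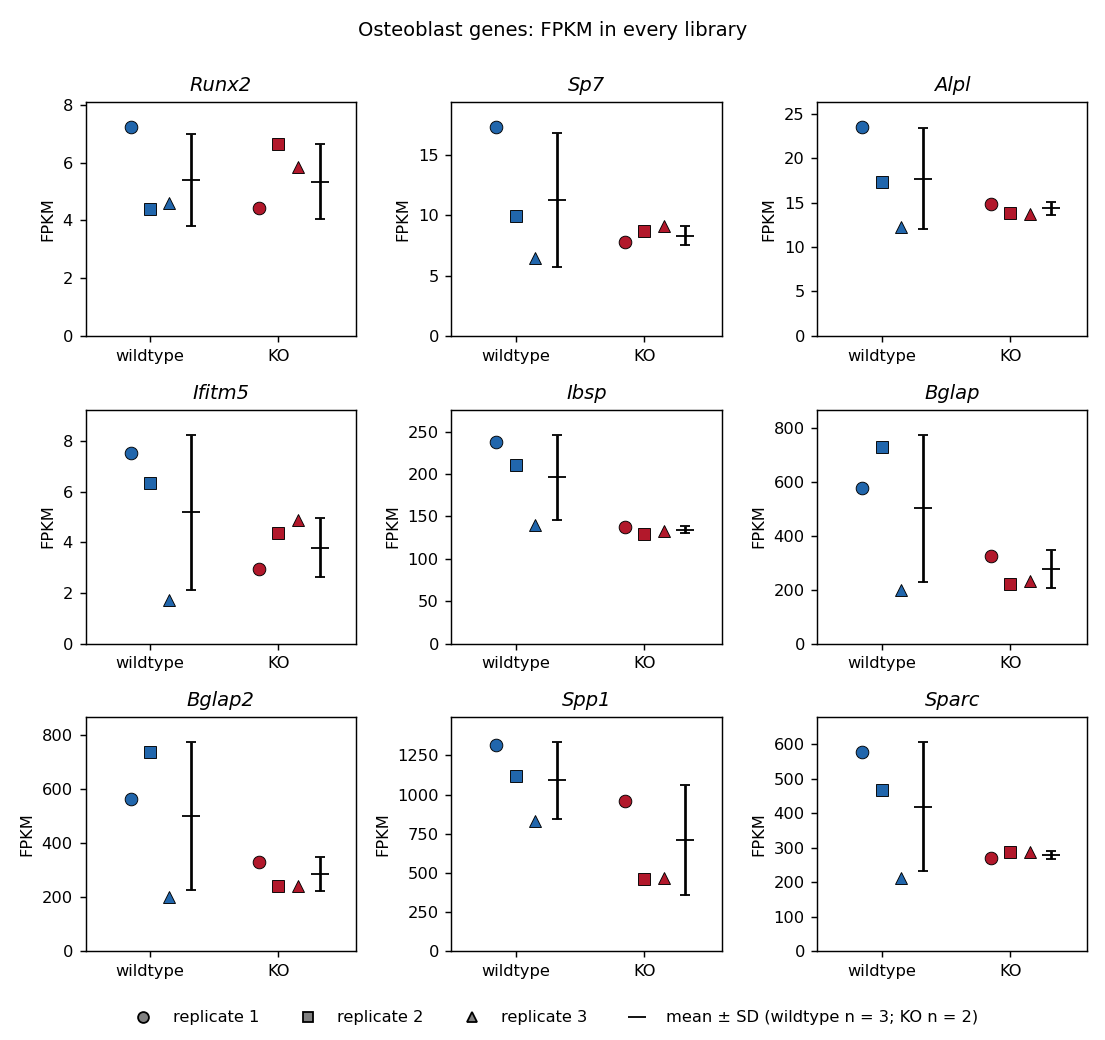
FPKM (vertical axis, from 0) of the 9 genes in each wildtype (blue) and KO (red) library, with symbols for the replicate number and, at the right of each group, the mean ± SD (wildtype n = 3, KO n = 2 with replicates 2 and 3 averaged). Wildtype replicates 1 and 2 stand above every KO library in 8 of the 9 genes, and wildtype replicate 3 stands under every KO library in 6. The same was not counted over all genes.

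*Runx2*, the master regulator of the lineage (chr17:44495987-44814797, minus strand), measured 7.24, 4.38 and 4.6 FPKM in the wildtype libraries, in the order of their numbers, against 4.42, 6.65 and 5.86 FPKM in the KO libraries. The ranges of the groups covered each other almost fully. Means were 5.40 ± 1.59 FPKM (SD, n = 3) in wildtype and 5.34 ± 1.3 FPKM (SD, n = 2) in KO, and the log2 difference of -0.0006 ± 0.23 (SE) had an adjusted p of 0.9995 in edgeR's quasi-likelihood test. Leaving out single libraries or the KO pair moved it from -0.20 to 0.24, so no direction can be given.

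*Sp7* encodes osterix, which acts after RUNX2 and is needed for osteoblasts to mature (chr15:102356606-102366968, minus strand). Its FPKM was 17.3, 9.93 and 6.47 in the 3 wildtype libraries and 7.73, 8.66 and 9.08 in the KO libraries. Wildtype replicate 1 was far above the rest, wildtype replicate 2 slightly above all KO libraries and wildtype replicate 3 below them all. The log2 difference was -0.41 ± 0.36 (SE, adjusted p = 0.712) and came to 0.01 once wildtype replicate 1 was left out. The FPKM of *Sp7* over that of *Runx2* came to 2.39 and 2.27 in the first pair of wildtype libraries, 1.41 in wildtype replicate 3 and 1.3 to 1.75 in KO, so that the pair of factors did not keep a fixed proportion.

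Tissue-nonspecific alkaline phosphatase, the product of *Alpl* (chr4:137741733-137796384, minus strand), is a membrane enzyme that breaks down pyrophosphate, an inhibitor of mineral growth. *Alpl* stood at 23.5, 17.3 and 12.2 FPKM in wildtype and at 14.9, 13.9 and 13.7 FPKM in KO. The KO libraries lay close together, within the span of the wildtype libraries. The log2 difference was -0.28 ± 0.25 (SE, adjusted p = 0.728).

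*Ifitm5* encodes BRIL, a small membrane protein made almost only by mineralizing osteoblasts (chr7:140948958-140950291, minus strand), and it was the least abundant member in the KO libraries. It measured 7.51, 6.35 and 1.73 FPKM in wildtype, from 379, 294 and 84 counts, and 2.96, 4.38 and 4.87 FPKM in KO, from 133, 236 and 263 counts. The highest wildtype library exceeded the lowest by 4.35 times, the widest such span of the 9 genes in FPKM. The log2 difference of -0.44 ± 0.58 (SE, adjusted p = 0.833) was smaller than its error.

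*Ibsp*, bone sialoprotein, an acidic phosphoprotein that binds hydroxyapatite and cells (chr5:104299171-104311469, plus strand), had the clearest separation. Wildtype libraries read 237, 211 and 140 FPKM and KO libraries 137, 130 and 133 FPKM. The groups did not overlap in FPKM, a state that held for 1 of the 9 members and, with KO lower, for 2105 of the 15373 genes tested (13.7%). The gap between wildtype replicate 3 and KO replicate 1 was small, and after TMM scaling of the counts it reversed, to 324 against 337 CPM, counts relative to the scaled library total, so that 0 of 9 members were separated on that scale, beside 12.9% of genes. The log2 difference was -0.52 ± 0.24 (SE, adjusted p = 0.406) on 5 samples. Fitted on all 6 libraries as labelled, it came to -0.55 ± 0.19 (SE, adjusted p = 0.151).

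Osteocalcin, the most abundant noncollagenous protein specific to bone, binds calcium through its carboxylated glutamic acids. *Bglap* was measured at 576, 731 and 199 FPKM in wildtype and 326, 221 and 232 FPKM in KO, and *Bglap2* at 564, 736 and 199.8 FPKM in wildtype and 330.3, 242 and 242 FPKM in KO. Both genes were high in wildtype replicates 1 and 2, and wildtype replicate 3 was the lowest of all 6 libraries. The log2 differences were -0.84 ± 0.51 (SE, adjusted p = 0.555) for *Bglap* and -0.79 ± 0.50 (SE, adjusted p = 0.578) for *Bglap2*. The summed cluster of 3 genes, which does not depend on how reads were split, held 41077, 48239 and 13806 counts in wildtype and 20914, 17641 and 18102 counts in KO. Its log2 difference was -0.82 ± 0.51 (SE, adjusted p = 0.573). In every library the pair stood near equal in FPKM, at 0.915 to 1.02 units of *Bglap* FPKM per unit of *Bglap2* FPKM. In counts *Bglap* exceeded *Bglap2* in every library, as with 23496 against 17527 in wildtype replicate 1, so the near equality belongs to the FPKM values. The summed cluster ran from 399 FPKM in wildtype replicate 3 to 1467 FPKM in wildtype replicate 2.

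Osteopontin (*Spp1*, chr5:104435118-104441050, plus strand, 123648 bases beyond *Ibsp*) is a secreted phosphoprotein of bone that also limits crystal growth and signals to cells. It was the most abundant member in every library, with 1319.5, 1118 and 834 FPKM in wildtype and 961, 461 and 468 FPKM in KO. Here the KO libraries were split: replicate 1 lay between wildtype replicates 2 and 3, while replicates 2 and 3 stood below every wildtype library. KO replicate 1 exceeded the mean of the other KO libraries by 1.16 on the log2 CPM scale, the largest such gap among the members. The log2 difference was -0.57 ± 0.38 (SE, adjusted p = 0.603). It became -1.27 (adjusted p = 0.0955) without KO replicate 1 and -0.10 without KO replicates 2 and 3. Relative to *Ibsp*, *Spp1* FPKM was 7.0 times as high in KO replicate 1, 5.3 to 5.96 times in wildtype and 3.51 to 3.55 times in KO replicates 2 and 3.

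Osteonectin (*Sparc*, chr11:55394500-55423183, minus strand) binds collagen and calcium and is made by bone cells, fibroblasts and endothelium. It stood at 577, 468 and 212 FPKM in wildtype and at 271, 288 and 289 FPKM in KO. As with *Ifitm5* and *Sp7*, the KO libraries lay together, between 2 higher wildtype libraries and a lower one. Means were 419 ± 187 FPKM (SD, n = 3) and 279.5 ± 12.4 FPKM (SD, n = 2), and the log2 difference was -0.56 ± 0.41 (SE, adjusted p = 0.633).

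**Figure D2:**
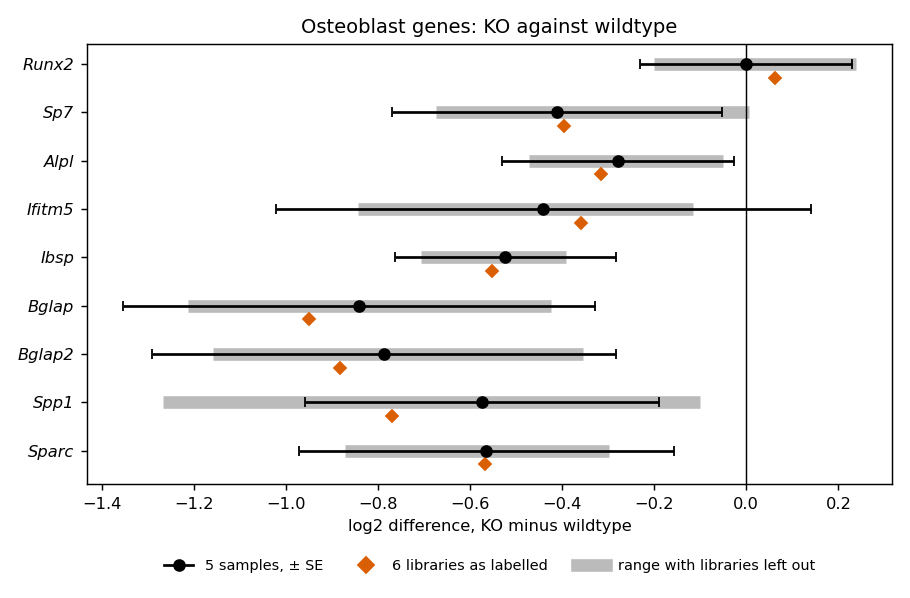
Log2 difference of each gene (horizontal axis, KO minus wildtype) on 5 samples with its SE (black), with the 6 libraries as labelled (orange), and the range over fits with libraries left out (grey). Black points run from -0.84 for *Bglap* to -0.0006 for *Runx2*, and the grey ranges of *Runx2* and *Sp7* reach past 0.

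Ordered by their wildtype mean FPKM, *Spp1* came first, then *Bglap* and *Bglap2*, *Sparc*, *Ibsp*, *Alpl*, *Sp7*, *Runx2* and *Ifitm5*. Only the steps from *Spp1* to *Bglap* and from *Ibsp* to *Alpl* were wider than the spread, the lowest wildtype *Ibsp* value of 140 FPKM standing against a highest *Alpl* value of 23.5 FPKM. The other neighbours overlapped over the wildtype libraries, although *Sparc* exceeded *Ibsp*, *Alpl* exceeded *Sp7*, and *Sp7* exceeded *Runx2* in 3 of 3. The secreted matrix genes thus all stood above 100 FPKM in every library and the regulators and membrane proteins all under 24 FPKM. *Bglap* and *Bglap2* ranked above *Sparc* in KO replicate 1 and in wildtype replicate 2, and below it in the other libraries.

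Most members were high in wildtype replicates 1 and 2 and lower in wildtype replicate 3 and the KO libraries, with *Runx2* apart from this order. In FPKM, wildtype replicate 1 was above every KO library in 9 of 9 genes and wildtype replicate 2 in 8 of 9, *Runx2* being the exception. Wildtype replicate 3 was the lowest wildtype library in 8 of 9, again all but *Runx2*, where 28.5% of all genes tested had it lowest (in CPM, in which the count of members is the same), and it was under every KO library in 6 of 9. How many of all genes had a given wildtype library above or under every KO library was not counted. Nothing particular to the members is therefore read from those counts. The log2 span among the wildtype libraries had a median of 1.38 over the members, beside 0.338 over all genes tested. It was above 1 for 5 of the 9 members (*Sp7*, *Sparc*, *Bglap*, *Bglap2* and *Ifitm5*) and for 9.56% of all genes. KO replicate 1 differed from the near-copies mainly in *Spp1*, *Bglap* and *Bglap2*, which were higher in it by 1.16, 0.64 and 0.56 on the log2 scale, and in *Ifitm5* and *Runx2*, which were lower by values of -0.52 and -0.39.

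**Figure D3:**
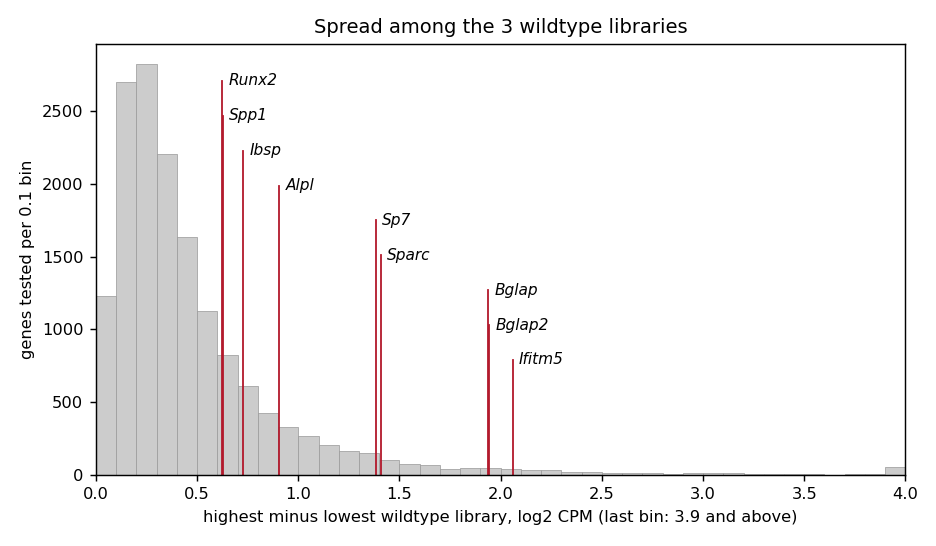
Distance between the highest and lowest of the 3 wildtype libraries (horizontal axis, log2 CPM) for all 15373 genes tested (grey bars, genes per bin of 0.1) and for the 9 osteoblast genes (red lines, whose height only spaces the names). The members run from 0.62 (*Runx2*) to 2.06 (*Ifitm5*), with the median of all genes at 0.338.

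Because wildtype replicate 3 stood apart, the comparison was also read without it. The log2 differences were then -1.21 ± 0.29 for *Bglap*, -1.16 ± 0.28 for *Bglap2*, -0.87 ± 0.30 for *Sparc*, -0.84 ± 0.34 for *Ifitm5*, -0.71 ± 0.21 for *Ibsp*, -0.67 ± 0.25 for *Sp7* and -0.47 ± 0.19 for *Alpl* (SE). *Spp1* stood at -0.72 ± 0.43 and *Runx2* at -0.09 ± 0.25. Of the 9, 7 had an unadjusted edgeR p under 0.05, beside 3.97% of all genes with KO lower, but the library was left out because it was the lowest wildtype library for most of these same genes, which by itself widens the difference and narrows the spread, so nothing is read from that count. The lowest adjusted p among the 9 was 0.487. Without wildtype replicate 1 in its place, the median over the members was -0.30 and *Sp7* and *Runx2* turned positive.

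Other cell types moved with these libraries as well. In wildtype replicate 3 the skeletal muscle list (8 genes, 6 tested) summed to 257 FPKM, against 32 and 52.9 FPKM in the other wildtype libraries, and to 137, 4.37 and 3.57 FPKM in the KO libraries. *Acta1*, skeletal actin, went from 60.7 FPKM there and 34.3 FPKM in KO replicate 1 to 0.251 and 0.348 FPKM in the near-copies. Erythroid transcripts also summed highest in wildtype replicate 3, at 108529 FPKM, beside 71677 and 82939 FPKM in wildtype and 60688, 25199 and 24933 FPKM in KO. None of the 8 erythroid markers and 2 of the muscle markers were at 0 in any library. The part of muscle and blood RNA in the members' values was not tested.

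**Figure D4:**
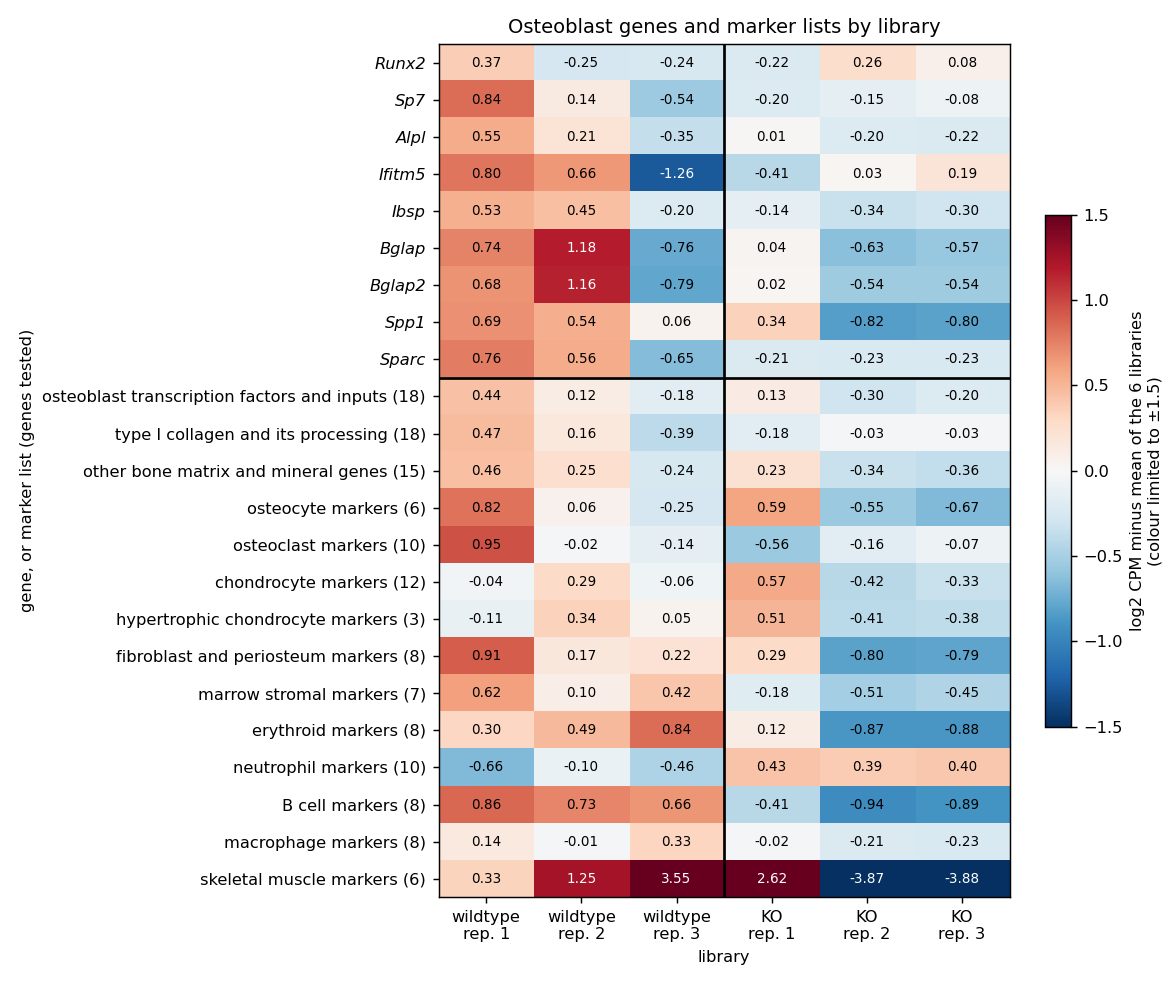
Log2 CPM of each osteoblast gene (upper rows), and the mean over the tested genes of each marker list (lower rows, number in brackets), in the 6 libraries after subtracting the mean of the libraries. Wildtype replicate 1 is above the mean for all 9 osteoblast genes and wildtype replicate 3 below it for 8, *Spp1* standing at 0.06; the muscle row exceeds the colour range.

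The regulators upstream of osteoblast differentiation gave no called gene. Of 20 listed transcription factors and signalling inputs, 18 were tested, 6 were higher and 12 lower in KO, and none had an unadjusted p under 0.05. Their median log2 difference was -0.24. *Atf4*, which drives amino acid supply for matrix synthesis, stood at 79.7, 87.5 and 85 FPKM in wildtype and 78.6, 67.3 and 71.1 FPKM in KO, a log2 change of -0.16 ± 0.15 (SE, adjusted p = 0.731). *Cbfb*, the partner that RUNX2 binds, was at 0.13 ± 0.16 (SE), and the lowest p belonged to the BMP receptor *Bmpr1a* (0.37 ± 0.18, adjusted p = 0.435) and the WNT coreceptor *Lrp5* (0.23 ± 0.12, adjusted p = 0.464), both on the higher side.

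Type I collagen, the fibre on which bone mineral is laid, was highest in wildtype replicate 1 and overlapped between the groups. *Col1a1* stood at 495, 246 and 118 FPKM in wildtype and at 105, 317 and 312 FPKM in KO, and *Col1a2* at 368, 209.6 and 92.5 FPKM in wildtype and 86.1, 197 and 197 FPKM in KO. The order of the KO libraries was thus the opposite of that of *Spp1*: replicate 1 was the lowest for collagen and the highest for osteopontin. Log2 differences were -0.45 ± 0.64 and -0.65 ± 0.59 (SE), with adjusted p of 0.849 and 0.726. Of the 18 genes of collagen and its processing, all tested, 13 were lower and 5 higher, with a median of -0.24. *Tmem38b*, a cation channel of the endoplasmic reticulum, was the 1 gene with an unadjusted edgeR p under 0.05 (0.62 ± 0.14, adjusted p = 0.168). It was not called on 5 samples. Only the edgeR fit on 6 libraries, which counts the near-copies as separate samples, called it higher in KO (adjusted p = 0.0358). The procollagen protease *Bmp1* was at -0.59 ± 0.30 (SE, adjusted p = 0.453).

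Among the other bone matrix and mineral genes and the osteocyte markers, the KO libraries differed in a direction that depended on the gene. Of 18 listed matrix and mineral genes, 15 were tested, 11 were lower and 4 higher, with a median of -0.17 that went to -0.73 without KO replicate 1. *Sost* (sclerostin, the WNT inhibitor made by osteocytes) stood at 39.0, 27.2 and 24.6 FPKM in wildtype and at 73.0, 15.5 and 14.8 FPKM in KO. *Mepe*, an osteocyte matrix protein, followed the same order in KO, with 64.4, 29.4 and 33.0 FPKM in wildtype and 70.5, 23.4 and 24.3 FPKM in KO. KO replicate 1 was thus the highest library for both and the near-copies the lowest. *Phex*, a phosphate-regulating peptidase, was level over the KO libraries, at 3.6, 3.78 and 3.39 FPKM, against 10.9, 5.56 and 3.88 FPKM in wildtype (-0.89 ± 0.39, adjusted p = 0.380). *Col22a1*, a collagen, went the opposite way to *Sost*, at 1.7, 3.52 and 3.53 FPKM in KO and 7.05, 4.11 and 2.14 FPKM in wildtype (-0.75 ± 0.48). *Dmp1* (-0.28 ± 0.45) and the mineralization inhibitor *Mgp* (0.14 ± 0.39) did not pass either. Of the 8 osteocyte markers, 6 were tested, 4 were lower and 2 higher, with a median of -0.22 that went to -0.90 without KO replicate 1.

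Osteoclasts, which resorb bone and also make *Spp1*, were marked by 10 genes, all tested, of which 9 were lower in KO and 3 of those had an unadjusted edgeR p under 0.05. None was called. *Ctsk* (cathepsin K) stood at 731, 333 and 278 FPKM in wildtype and 219, 243 and 242 FPKM in KO (-0.92 ± 0.40, adjusted p = 0.370), and *Acp5* (tartrate-resistant acid phosphatase) at 473, 212 and 201 FPKM in wildtype and 137, 162 and 161 FPKM in KO (-0.96 ± 0.37, adjusted p = 0.320). Both were highest in wildtype replicate 1 and did not overlap between the groups in FPKM, which, with KO lower, also held for 13.7% of all genes tested. *Atp6v0d2*, a proton pump subunit, was at -0.83 ± 0.30 (adjusted p = 0.289) and *Mmp9*, which neutrophils also make, at 0.40 ± 0.26 (adjusted p = 0.592). The list summed to 1524, 745 and 714 FPKM in wildtype replicates 1, 2 and 3 and to 580, 780 and 773 FPKM in the KO libraries, while the 9 osteoblast genes summed to 3330, 3302 and 1610 FPKM in wildtype and 2055, 1375 and 1396 FPKM in KO. Within wildtype both sums were lowest in replicate 3, but the KO libraries went different ways. The osteoclast sum was under that of wildtype replicate 3 only in KO replicate 1, and the osteoblast sum only in KO replicates 2 and 3. *Mmp9* alone gave 201, 343 and 337 FPKM of the osteoclast sum in the KO libraries. The part of osteoclasts in the *Spp1* values was not tested.

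The remaining lists are given by counts, since they describe what else the libraries held. The 12 tested chondrocyte markers had 7 higher and 5 lower in KO, at a median of 0.06, and the summed list was highest in KO replicate 1, at 1496 FPKM against 668 to 890 FPKM in wildtype and 676 and 685 FPKM in the KO near-copies. *Prg4* was at 0.62 ± 0.42 and *Chad* at 0.67 ± 0.39 (SE), and both were under 0 without KO replicate 1 (-0.21 and -0.002), and *Col9a2* was at 0.59 ± 0.35. Of 3 tested hypertrophic chondrocyte markers 2 were lower, *Mmp13* at -0.41 ± 0.21 and *Col10a1* at -0.11 ± 0.36, and *Ihh* was at 0.57 ± 0.45. Fibroblast and periosteum markers had 6 of 8 lower, with *Col3a1* at -1.02 ± 0.47, *Aspn* at -1.68 ± 0.39 (adjusted p = 0.171) and *Pi16* at 0.75 ± 0.14 (adjusted p = 0.166). With the 6 libraries as labelled, the near-copies counted as separate samples, *Aspn* was called lower and *Pi16* higher in KO. All 7 marrow stromal markers were lower, 6 of them at an unadjusted edgeR p under 0.05 (*Adipoq* -1.60 ± 0.33, *Cxcl12* -0.63 ± 0.23), all 8 erythroid markers were lower, 3 of them so (*Alas2* -0.91 ± 0.32), and 6 of 8 macrophage markers were lower, 1 of them so (*Mrc1* -0.75 ± 0.17). All 10 neutrophil markers were higher, 6 of them so (*Elane* 0.87 ± 0.21), and all 8 B cell markers lower, 8 of them so (*Cd79a* -1.35 ± 0.26); with the 6 libraries as labelled 3 and 7 of these were called, as were 2 marrow stromal markers (*Adipoq* and *Kitl*) and 1 macrophage marker (*Mrc1*), these 3 lower in KO. All 6 tested muscle markers were lower, none so (*Myh4* -1.28 ± 1.76, *Actn3* -0.81 ± 1.42, *Mylpf* -0.41 ± 0.98, *Acta1* -0.53 ± 1.51), at a median of -0.67 that turned to 0.79 without wildtype replicate 3. The part of these cell types in the members' values was not tested.

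The genes whose profile over the 6 libraries came closest to the mean profile of the members were *Ppic*, *Fap*, *Serpinh1*, *Bmp1* and *Pth1r*. Likeness was the root mean square of the difference between mean-centred log2 CPM profiles, over 7606 other genes averaging 5 FPKM or more. It was 0.08 for *Ppic* (a peptidyl-prolyl isomerase), *Fap* (a cell-surface protease) and *Serpinh1* (the collagen chaperone HSP47), and 0.11 and 0.12 for *Bmp1* and *Pth1r* (the parathyroid hormone receptor), beside a median of 0.492 over those genes. *Fap*, for example, stood at 20.2, 16.2 and 9.33 FPKM in wildtype and at 10.3, 9.63 and 9.92 FPKM in KO, with wildtype replicates 1 and 2 above and the rest near level. Among the members *Sparc* lay nearest to the mean profile (0.09), then *Ibsp* (0.15) and *Alpl* (0.16), and *Runx2* (0.45), *Spp1* (0.43) and *Ifitm5* (0.41) lay furthest. A gene at the same level in all 6 libraries would lie 0.438 from the mean profile, so these 3 were about as far from it as a flat profile. The distance reflects the size of a swing as well as its shape. *Ifitm5* stood at 0.80, 0.66 and -1.26 in wildtype, the same order as the mean profile (0.66, 0.52 and -0.53) with a wider swing. The members are also part of that mean. These likenesses were chosen from the same 6 libraries and carry no test.

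By the deposited gene annotation, 4 members (*Bglap*, *Bglap2*, *Ibsp* and *Spp1*) carried the term biomineral tissue development, which 27 genes of the table held, and 6 carried extracellular space, held by 1653 genes. Osteoblast differentiation, held by 94 genes, was given to *Runx2*, *Sp7* and *Spp1*, and regulation of bone mineralization, held by 25 genes, to *Bglap*, *Bglap2* and *Ifitm5*. The 4 genes of the first term spanned differences from -0.84 to -0.52, and the 3 of osteoblast differentiation from -0.57 to -0.0006.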

How the data were processed

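RNA of articular cartilage was sequenced in 3 KO and 3 wildtype libraries, grouped by their titles; the knocked-out gene is not reported here. Per the labels, oligo(dT)-selected mRNA gave strand-specific libraries with molecular identifiers, read as pairs of 150 bp. The submitters' processing notes name cutadapt 1.9, HISAT2 2.0.4, UMI-tools, StringTie 1.3.4d, DESeq2 and edgeR, without roles. Genome build and annotation are not given in the sources used here; 30117 of 34607 shared genes (87.0%) had their GENCODE vM21 (GRCm38) positions. The authors deposited FPKM values, computed within each library, and estimated counts, which were whole but piled up at 4 (6596 values, against 4170 at 3 and 2332 at 5), so a count is not taken as a single molecule. No depth-based interval covers more than counting error; 3 counts correspond to at most 0.0574 CPM.

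KO replicates 2 and 3 were averaged (counts rounded) into 1 sample. Genes averaging 0.5 FPKM or more were tested on the counts with edgeR's quasi-likelihood method (edgeR 4.0.16, R 4.3.3; TMM scaling; Benjamini-Hochberg adjustment; called at an adjusted p under 0.05), KO against wildtype; the procedure was checked on simulated data. FPKM means ± SD used the same samples. Alternatives were the 6 libraries as labelled, a replicate block, DESeq2 1.42.0, limma 3.58.1 on log2(FPKM + 1) and log2(FPKM + 0.1), median-of-ratios scaling, no filter, a minimum of 5 FPKM, counts divided by 4, and each library left out. Comparing the overlap of groups on the CPM scale was chosen after seeing the data. Deviations of same-numbered libraries from their group means had correlations of -0.14, -0.11 and -0.06. Because KO replicates 2 and 3 are near-copies, these values cannot decide whether the numbers pair the samples. The main fit used no pairing.

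The members and lists were chosen with earlier results of these data known. Named list genes were the 2 with the lowest unadjusted p and the 2 with the highest mean FPKM in each list, beside all members and the 5 genes nearest in profile; *Col2a1* and *Acan* were named outside this rule as defining cartilage markers, after their values were seen, and of the blood, marrow and macrophage lists only examples of the genes so chosen are given. The erythroid list held 9 names, of which 8 were found. Promoters came from RefSeq (GRCm38.p6; 7 of 9 members matched) and coding sequences from GENCODE vM21. 0 columns of per-sample values were left unused.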

Additional observations from a re-analysis of the deposited data

How the results depend on the processing

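Of 143 values of single members over 16 alternatives, 134 kept their direction, 9 reversed and 0 were called; the lowest adjusted p was 0.0955 (*Spp1* without KO replicate 1). The reversed values were 8 of *Runx2*, at 0.0622 with the 6 libraries as labelled, 0.0828 with a replicate block, 0.0123 with DESeq2 and with median-of-ratios scaling, 0.0426 with no filter and from -0.108 to 0.238 with single libraries left out (above 0 without KO replicate 1, KO replicate 3 or wildtype replicate 1), and 1 of *Sp7*, which ran from -0.673 to 0.0058 with single libraries left out and was above 0 without wildtype replicate 1; the cause was not tested. With a minimum of 5 FPKM *Ifitm5* was no longer tested, and the other 8 stayed below 0. The count of members called was 0 throughout. Their median log2 difference was -0.52 and stayed between -0.72 and -0.30 with single libraries left out, at -0.46 with the replicate block, and the summed *Bglap* cluster, at -0.82, was between -1.19 (without wildtype replicate 3) and -0.39 (without wildtype replicate 2). Over all genes the call depended on the fit: 0 on 5 samples became 570 with 6 libraries, 880 with DESeq2, 21 with no filter and 9 without KO replicates 2 and 3, and was between 0 and 352 with single libraries left out (352 without KO replicate 1), and 0 with the replicate block. With fewer samples in a group, the lone KO sample is assumed to vary like the wildtype libraries. The 1 member separated in FPKM became 0 on the CPM scale. With 2 KO samples, differences of the size seen here cannot be set apart from the spread among the wildtype libraries.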
